A study of Mus musculus with 7 samples.

Results

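The lung and brain libraries of a CTCF ChIP-exo 5.0 series in mouse organs were compared across all placed autosomal peaks. Peaks on the mitochondrial genome, on unplaced contigs and on the sex chromosomes were left out, and so were 10000 bp bins that held 20 or more peaks in both libraries. This left 107487 lung peaks and 285713 brain peaks, 393200 in all, of 2603994 peaks in the 7 libraries of the series. Both organs came from wildtype adult male mice aged 16 weeks, 100 mg of tissue was processed for each, and both were treated with the same lot of CTCF antibody. The labels give 0.3% formaldehyde and the study's methods 1%, and the extraction protocol in the labels names IgG. Strain and number of animals were not given in the sources used here. There was 1 library a side, so that every difference below stands without replicates and without a test. Intervals are 95% intervals for counting error only, and they treat every tag as a separate count.

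CTCF is a zinc finger protein that binds a long, asymmetric motif. Together with the ring-shaped cohesin complex it holds chromatin loops and the borders of chromatin domains, and it also acts as an insulator between enhancers and promoters. Most of its sites are known to be shared by many cell types, while a smaller set differs between them, often with the methylation of the motif. In ChIP-exo, lambda exonuclease trims each strand of the immunoprecipitated DNA until it meets the crosslinked protein. A bound site therefore gives a forward-strand peak on its left and a reverse-strand peak on its right. A tag is 1 sequenced stop position, and a peak here is a strand-specific interval of 21 bp with its number of tags.

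The sequences below lie just before the transcription starts of 6 genes. They show the motif at sites at least 4-fold apart between lung and brain and at sites within 2-fold. Each is 60 bases of the RefSeq promoter windows of GRCm38.p6 (mm10), on the strand of the gene. Capitals mark a match to the CTCF core, written here as CCANNAG directly followed by NNGGC, or its reverse complement. The first pair had more tags in lung, the third more in brain, and the last 3 were within 2-fold. Gm38588 is at chr7:98481167-98481226, Homer3 at chr8:70282939-70282998 and Cryz at chr3:154596608-154596667. Adprhl2 is at chr4:126321724-126321783, Mrpl34 at chr8:71464765-71464824 and Lsm11 at chr11:45945003-45945062.
Gm38588, plus strand: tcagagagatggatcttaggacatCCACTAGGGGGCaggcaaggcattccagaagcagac
Homer3, plus strand: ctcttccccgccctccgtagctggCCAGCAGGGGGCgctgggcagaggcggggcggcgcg
Cryz, plus strand: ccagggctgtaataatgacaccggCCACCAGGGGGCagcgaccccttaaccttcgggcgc
Adprhl2, minus strand: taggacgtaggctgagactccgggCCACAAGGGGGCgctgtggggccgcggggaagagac
Mrpl34, plus strand: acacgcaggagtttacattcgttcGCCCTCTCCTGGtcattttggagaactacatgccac
Lsm11, minus strand: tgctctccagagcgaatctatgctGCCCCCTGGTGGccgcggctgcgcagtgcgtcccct

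The lung library listed 115734 peaks with 691479 tags and the brain library 300719 peaks with 1032833 tags. The retained autosomal peaks held 91.1% of the lung tags and 86.9% of the brain tags. The 27 autosomal bins that were dense in both had held 4.30% and 6.34%. Mitochondrial tags were 0.0278% of the lung library and 1.10% of the brain library. Levels below are scaled to the library total and given in CPM, which are tags per 1000000 tags of the library.

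In both organs most peaks had all of their tags at exactly the same base, which the files show as a standard deviation of 0. These single-position peaks were 85.9% of retained lung peaks (85.7 to 86.1) and 84.8% of brain peaks (84.7 to 85.0), and they were kept apart. Spread peaks, with tags at more than 1 position, numbered 15155 in lung and 43366 in brain. They held 12.9% of all lung tags and 15.0% of all brain tags. The lung library had fewer peaks. The median spread peak held 3 tags in both organs, and the median single-position peak held 6 tags in lung and 3 in brain, with highest values of 35 and 13. Single-position peaks of 10 or more tags were 11.3% of those in lung and 0.0466% of those in brain. In lung their sizes had 2 humps, with 16963 peaks of 2 tags, 8871 of 4 and 10533 of 6, whereas in brain the numbers fell steadily from 106245 peaks of 2 tags to 38118 of 4 and 8513 of 6. Among spread peaks, 2982 in lung and 944 in brain held 10 or more tags.

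**Figure D1:**
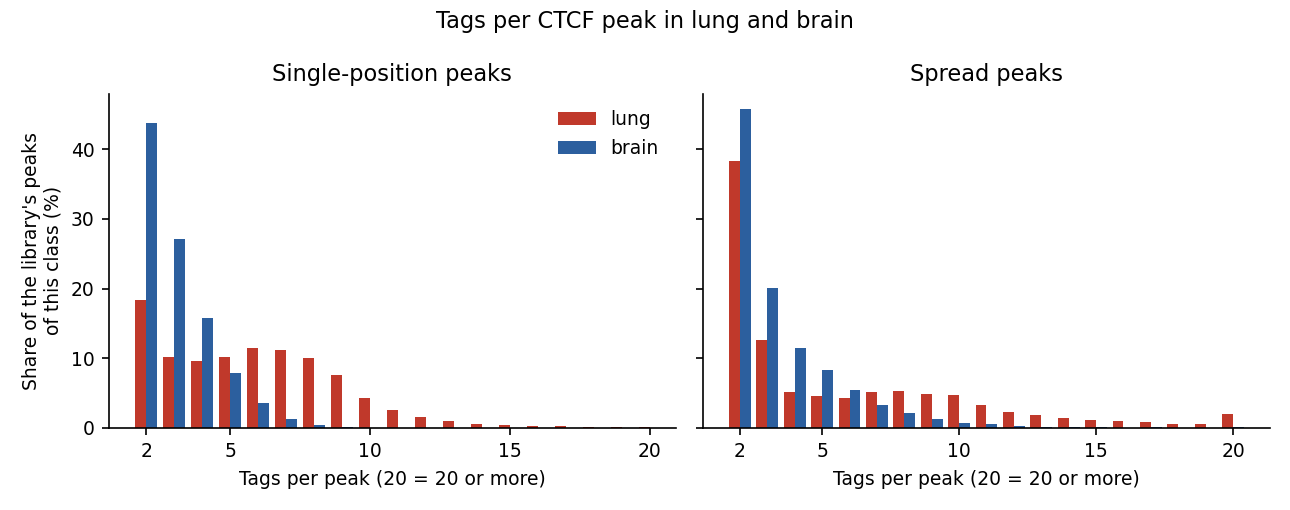
Share of each library's retained peaks (%) by the number of tags in the peak, for single-position peaks (left) and spread peaks (right), lung in red and brain in blue, with 20 standing for 20 or more tags. Brain peaks pile up at 2 tags, whereas lung peaks show a second hump, at about 6 tags in the single-position peaks, whose median is 6 in lung and 3 in brain.

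Spread peaks of lung and brain coincided far more often than after a move of the list, though most had no partner in the other organ. A spread peak of the same strand within 10 bp in the other organ was found for 3340 lung spread peaks, or 22.0% (21.4 to 22.7), and for 3383 brain spread peaks, or 7.80% (7.55 to 8.06). After one list was moved by 5000 bp the shares were 0.0726% and 0.00692%. The share depended on the tags in the peak. It was 14.1% for lung peaks of 2 tags and 33.1% for those of 10 or more, and in brain it went from 4.34% to 29.6%. Single-position peaks were matched with each other far less often, 1.25% of them in lung and 0.478% in brain, against 0.135% and 0.0565% after the move.

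The match was near to the base pair in part of the peaks only. Of 7620 lung spread peaks with a brain spread peak of the same strand within 100 bp, 271 lay at the same base, 781 within 1 bp and 2245 within 5 bp. The median distance was 13 bp. Brain stops lay on the upstream side in 3645 cases and on the downstream side in 3704, so neither side was favoured.

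The borders of the exonuclease stops lay within a few bp of each other in lung and brain at sites of another library. Sites were taken here from the library of 2700000 liver cells, which neither organ had entered, and gave 64440 places where a forward and a reverse peak faced each other. Lung forward peaks were commonest 25 bp before the centre and reverse peaks 23 bp after it, a distance of 48 bp. In brain the commonest positions were 25 bp before and 21 bp after, a distance of 46 bp. Forward peaks lay before the centre in 67.7% of lung peaks and 67.0% of brain peaks, and reverse peaks after it in 71.1% and 69.5%. The summits were flat, with 121 and 144 peaks at the commonest base in lung and 276 and 278 in brain, so the difference of 2 bp is not resolved. At the 5496 sites built from lung and brain peaks the commonest positions were -15 and 33 bp in lung and -26 and 27 bp in brain, distances of 48 and 53 bp. Only 65 and 56 lung peaks lay at the commonest bases there, so this difference is not resolved either. The centres of these sites also came from pairs of the same peaks, 1389 of lung and 7134 of brain. A smaller second maximum appeared on the opposite side of the centre on each strand in both organs.

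**Figure D2:**
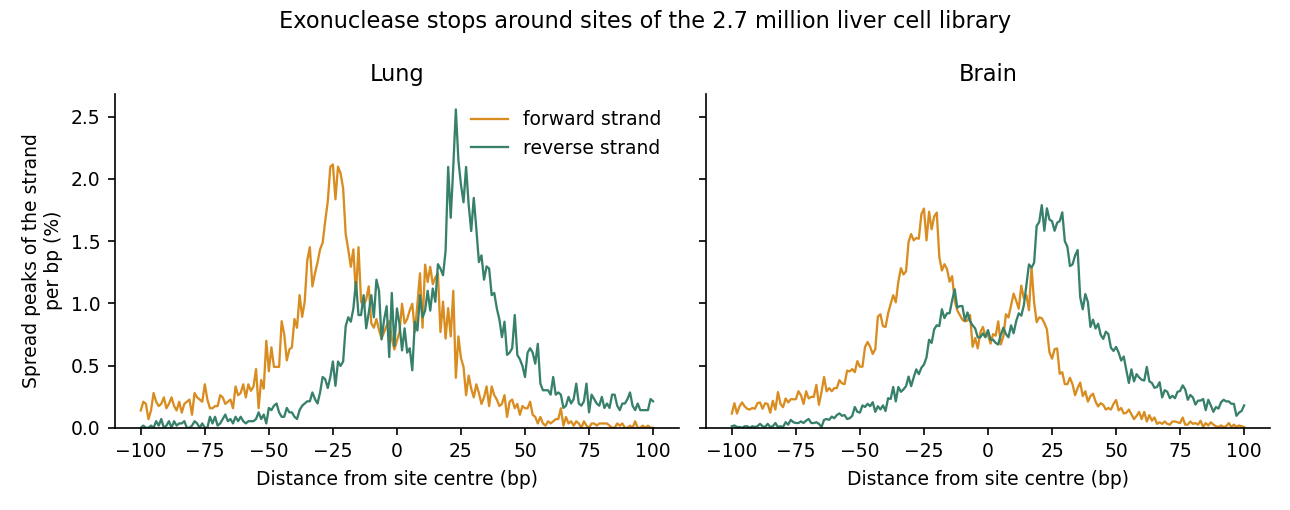
Share of spread peaks of each strand per base (%) against the distance from the centre of sites of the 2700000 liver cell library (bp), in lung (left) and brain (right), forward strand in orange and reverse strand in green. The forward maximum lies at -25 bp in both organs and the reverse maximum at 23 bp in lung and 21 bp in brain, with a smaller inner maximum on each strand.

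To compare occupancy place by place, a forward and a reverse spread peak 10 to 80 bp apart were joined to a site, and the tags of spread peaks within 100 bp of its centre were summed. The union of both organs held 5496 such sites, of which 2109 had at least 20 tags in both libraries together. Of these, 239 were at least 4-fold higher in lung, which is 11.3%, and 395 were at least 4-fold higher in brain, which is 18.7%. Counts under 3 tags were set to 3, so a ratio to an empty window depends on this floor and is not a lower bound. Scaling to the tags of spread peaks in place of the library total gave 304 and 295, so the balance between the organs was not fixed by these data. The other 1475 sites lay within 4-fold, and 926 lay within 2-fold. The median log2 ratio of lung over brain was 0.29, and the interquartile range ran from -1.05 to 1.22.

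Most of the tested sites, which were chosen by their summed spread tags, held peaks of both organs. Spread peaks of both were present at 1830 of the 2109 sites (86.8%), and peaks of any kind at 1987 (94.2%). The tested sites held 35.8% of lung spread tags and 26.8% of brain spread tags, against 0.0551% and 0.0857% in the same windows moved by 5000 bp. The sites were built from these same spread peaks, so this contrast was fixed by their choice and shows nothing about occupancy. Of single-position tags, which did not enter the choice, the tested sites held only 2.14% in lung and 0.670% in brain. After the move these shares were 0.0379% and 0.0346%. Single-position tags were thus commoner at the tested sites than beside them, but nearly all of them lay outside these 2109 windows. Most spread tags lay outside them too, so this does not show whether the other places are CTCF sites.

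The number of calls varied with depth and with how tags were counted. Among sites with 20 to 39 tags, 177 were called lung-higher and 344 brain-higher. With 40 to 79 tags these counts were 61 and 18, and with 80 or more 1 and 33. Most of the brain-higher sites with 80 or more tags were neighbouring windows in a single stretch of chromosome 1, described below. When the brain library was thinned to the lung total, 1280 sites reached 20 tags, of which 133 (10.4%) were brain-higher and 190 (14.8%) lung-higher. When a lung or brain tag was counted in units of the median single-position peak of its library and the interval of the ratio had also to leave out 1, 130 lung-higher and 51 brain-higher sites remained. Single-position peaks of the lower organ were present at 145 of the 239 lung-higher sites and at 229 of the 395 brain-higher sites. With all peaks counted, 183 and 195 of the calls remained.

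**Figure D3:**
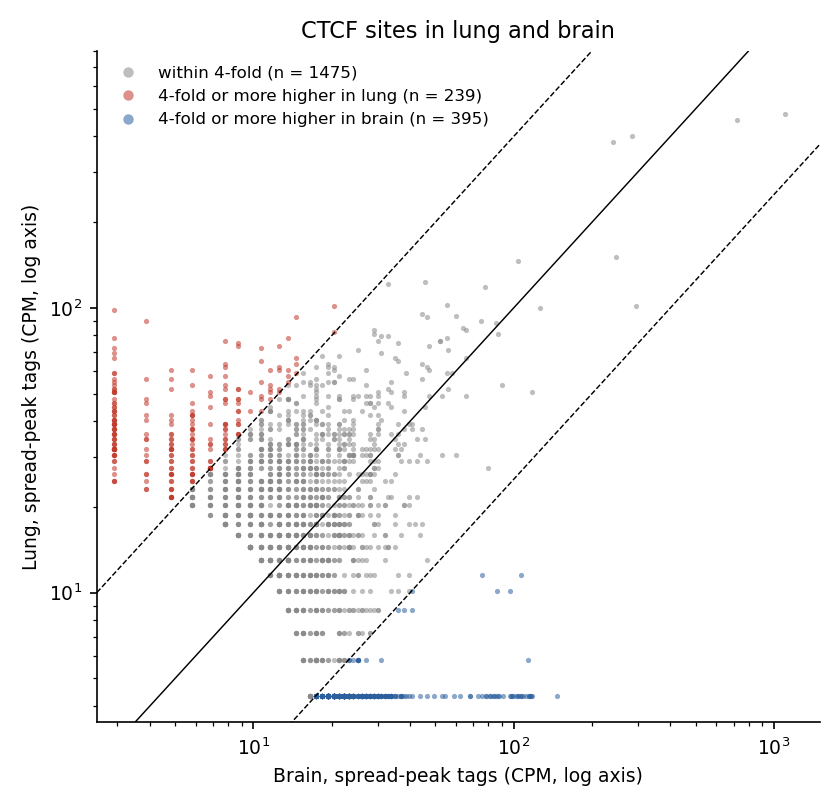
Spread-peak tags in CPM at 2109 sites in brain (horizontal, log axis) and lung (vertical, log axis), each point a site, with values under 3 tags drawn at 3 tags; the solid line marks equal values and the dashed lines 4-fold. Red points (239) were at least 4-fold higher in lung, blue points (395) at least 4-fold higher in brain, and 1475 grey points lie between the dashed lines.

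The sites with the highest lower value of both organs, chosen for being strong in both, are given next. Near Rab10os, a long noncoding RNA gene 125848 bp away, a window at chr12:3109843-3110043 held 331 lung and 1143 brain tags, and the lung value was 0.433 of the brain value after scaling (0.382 to 0.489). Within Chl1, which encodes a neural cell adhesion molecule, a window at chr6:103649099-103649299 held 315 and 745 tags. The window at chr10:121763141-121763341, 10376 bp from BC048403, held 277 and 294. All 3 held only spread peaks. In the liver cells the first and the second held 3229 and 3236 spread tags, but the window near BC048403 only 167, where the median uncalled site had 137. In kidney the 3 windows held 1841, 1553 and 481 spread tags and in liver 1231, 1619 and 345. The median uncalled site had 2 in each of these libraries, so the high signal was not particular to lung and brain. Its source was not tested.

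Near gene ends the occupancy of the 2 organs could be nearly equal. At Sh3glb1, which encodes endophilin B1, chr3:144720443-144720643 held 46 lung and 68 brain tags, or 66.5 and 65.8 CPM. Sh3gl1, the gene of the related endophilin A2, had 36 and 58 tags at chr17:56036663-56036863, a ratio of 0.927 (0.594 to 1.43). Rapgef1, an exchange factor for Rap GTPases, had 34 and 55 tags, a ratio of 0.923 (0.584 to 1.44). At Med4, a subunit of the Mediator complex, 30 and 39 tags were counted, and at Gdf15, a stress-induced cytokine of the TGF-beta family, 26 and 42. Lung was higher within 2-fold at Ivd, an enzyme of leucine breakdown, with 51 and 49 tags. The same held for Dhx8, a splicing helicase, with 45 and 37, and for Crebzf, a leucine zipper transcription factor, with 265 and 249. The Crebzf ratio was 1.59 (1.33 to 1.90). Like the window near BC048403, that at Crebzf had high signal in kidney and liver, 388 and 311 spread tags, but only 84 in the liver cells. The source of this signal was not tested.

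At the 10 lung-higher sites farthest from equality the brain library had no spread peak or, at 1 of them, a peak of 2 tags. The window at chr13:30548971-30549171, 3755 bp from Uqcrfs1, the Rieske iron-sulfur protein of respiratory complex III, held 50 lung tags and 0 brain tags. It was at least 24.9-fold higher in lung, against the floor of 3 tags per library, and 4 brain tags lay there in single-position peaks. The window with most lung tags among the 10, at chr2:30794895-30795095 and 568 bp from 1700001O22Rik, held 68 and 2.

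The other lung-higher sites lay within genes of several roles or outside genes. Inside Tiam2, an exchange factor for Rac, chr17:3451115-3451315 held 38 lung tags and 0 brain tags. Inside Rapgef5, an exchange factor for Rap GTPases, 36 and 0 were counted, inside Acvr1b, an activin receptor, 35 and 0, and inside Rcor1, a subunit of the CoREST corepressor complex, 31 and 0. At distances of 5320, 2565 and 36637 bp from the noncoding RNA genes AU022754, Gm31871 and Gm13373 the lung counts were 46, 33 and 31, and the brain counts 0. A site 57595 bp from Cul1, the scaffold of SCF ubiquitin ligases, held 37 and 0. Brain single-position tags at these 10 sites ranged from 0 to 6.

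All of the 10 brain-higher sites farthest from equality lay in a single stretch of chromosome 1, chr1:24611565-24616151, which holds the pseudogenes Gm10222 and Gm10925. This stretch is known as a nuclear copy of mitochondrial DNA. It gave 33 brain-higher calls, with 61 to 151 brain tags and at most 7 lung tags each. The stretch held 39.0 CPM in lung, 2097 in brain, 872 in kidney, 1645 in liver and 1214 in the liver cells, so lung stood apart from all 4. The mitochondrial shares of the libraries had the same order, with 0.0278% in lung, 0.451% in kidney, 0.910% in the liver cells, 1.02% in liver and 1.10% in brain, and their part in these calls was not tested. A second stretch, chr2:22587718-22590088 within Myo3a, a myosin gene, gave 9 brain-higher calls. It held 11.6 CPM in lung, 375 in brain, 161 in kidney, 288 in liver and 548 in the liver cells, so lung was lowest there too. The stretch on chromosome 1 was retained because only brain, not lung, had 20 or more peaks there.

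Bins dense in only 1 of the 2 libraries numbered 24, 19 of them dense in brain and 5 in lung. They held 81 sites, with 52 brain-higher and 6 lung-higher calls. Without them 343 of 2028 sites were brain-higher and 233 lung-higher, and the median log2 ratio was 0.32. Among the lung-dense bins, chr5:140430001-140440000, which overlaps Eif3b, a translation initiation factor gene, held 39 lung and 2 brain peaks and 4 lung-higher sites. The bin chr12:59030001-59040000, near Gemin2, held 89 lung and 19 brain peaks.

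Outside these bins the brain-higher sites farthest from equality, a selection made after the values were seen, lay near genes or far from any. At chr1:75559616-75559816, 285 bp from Slc4a3, an anion exchanger gene, 0 lung and 56 brain tags were counted, at least 12.5-fold more in brain. The window 628 bp from Top1mt, the mitochondrial topoisomerase I gene, held 0 and 42, and that 74 bp from Psmd6, a proteasome subunit gene, 0 and 39. Lung single-position tags were present at all 3, with 7, 6 and 11. Inside Ncs1, which encodes the neuronal calcium sensor 1, 0 and 35 tags were counted, and 300 bp from Zswim4 0 and 36. These last 2 windows held no lung peak of any kind. In units of the median single-position peak, the interval of lung over brain still reached 1.08 at both, so it did not leave out 1. A window 195948 bp from Chl1 and another 640386 bp from Nxph1 each held 0 and 38, with 10 lung single-position tags in both. With all peaks counted, the ratios of lung over brain near Chl1, Nxph1 and Psmd6 were 0.373, 0.364 and 0.421, within 4-fold. The window 14948 bp from Dpy19l2, at 2 and 78 tags, also held 136 tags in kidney and 206 in liver.

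**Figure D4:**
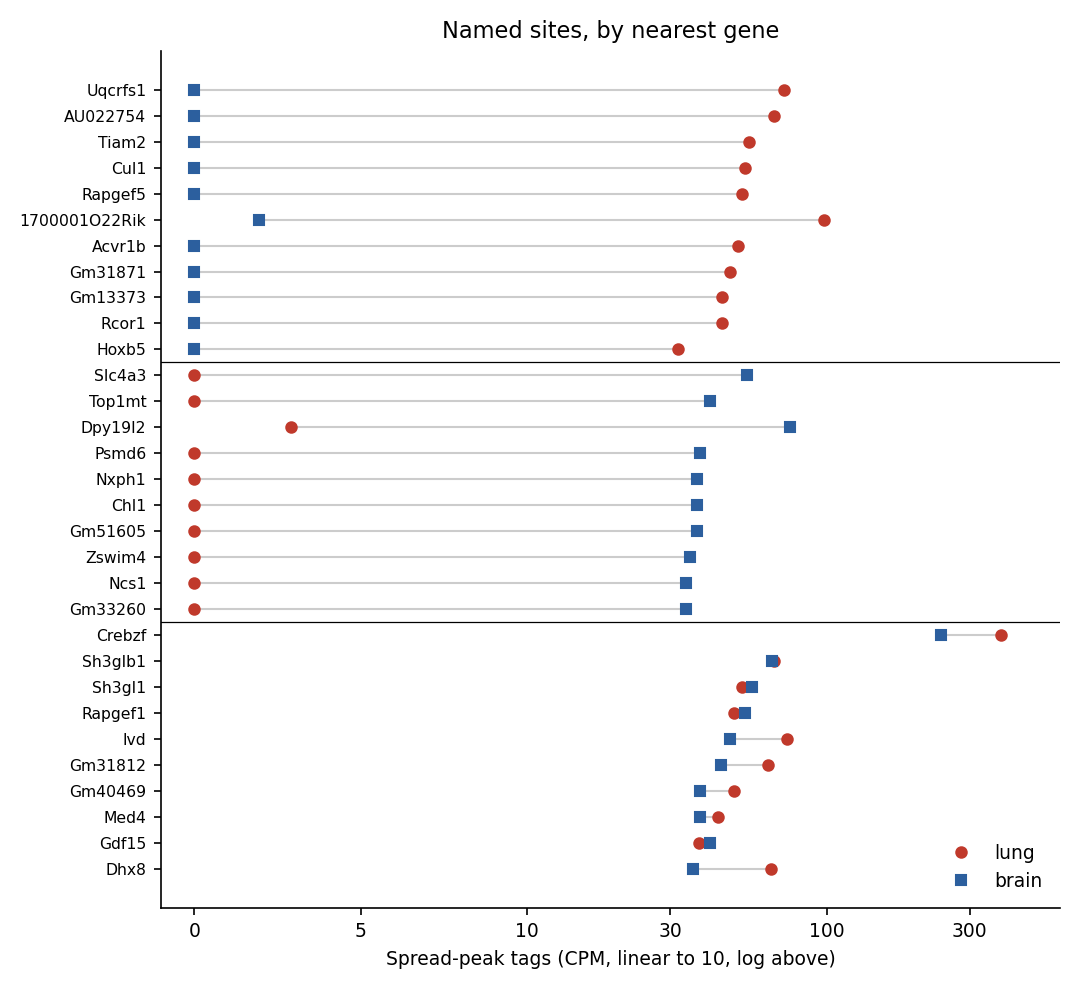
Spread-peak tags in CPM (linear to 10, log above) at named sites, each row a site labelled with its nearest gene or, for Hoxb5, with a gene at 285 bp, lung as red circles and brain as blue squares; the rows are lung-higher sites (top), brain-higher sites outside dense bins (middle) and sites within 2-fold near gene ends (bottom). In the top and middle blocks one organ sits at or near 0 in every row, whereas Sh3glb1 stands at 66.5 in lung and 65.8 in brain.

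Libraries that the calls did not use also held these sites. All 2109 sites had spread peaks in the library of 2700000 liver cells, lung-higher with a median of 123 tags and brain-higher with 147. In kidney, spread peaks were present at 48.5% of the lung-higher sites (42.3 to 54.8), 56.5% of the brain-higher sites (51.5 to 61.3) and 58.8% of the others (56.3 to 61.3). In liver the shares were 44.8%, 58.0% and 52.9%. Without the bins dense in 1 library the brain-higher shares were 50.7% in kidney and 52.5% in liver, and the lung-higher shares 47.6% and 45.9%, with overlapping intervals. Neither class of sites was thus absent from other tissues.

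The position of the sites relative to genes was counted in the same classes. A gene end lay within 1000 bp of 24.7% of the lung-higher sites (19.6 to 30.5), 17.5% of the brain-higher sites (14.0 to 21.5) and 25.6% of the others (23.4 to 27.9), against 12.2% of the sites after a move by 5000 bp. Promoter windows, from 250 bases before to 50 after a start, held 5.02% of the lung-higher sites and 5.06% of the brain-higher ones, but 11.2% of the others (9.68 to 12.9), whose interval lay above those of both called classes (2.90 to 8.57 and 3.30 to 7.69). Sites inside genes were 49.8%, 46.8% and 49.6%.

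Promoters with spread tags held the motif more often than promoters without. The core match occurred in 775 of 31340 promoter windows (2.47%). It was present in 20.7% of the 463 windows with spread tags in both organs (17.3 to 24.7), in 15.0% of 187 with lung spread tags only (10.6 to 20.8), in 15.1% of 563 with brain spread tags only (12.4 to 18.3) and in 1.88% of 30127 with none. Windows with single-position tags only held it in 3.75% of cases in lung and 2.47% in brain. The windows with spread tags were richer in G and C, with a median of 61% in those with tags in both against 52.7% in those with none, and its part in these shares was not tested. Around 722 motifs, spread peaks on the strand of the motif lay upstream of its centre in 60 of 67 cases in lung and in 125 of 174 in brain, with median positions of -29 and -20 bp. On the opposite strand 43 of 80 lung peaks and 125 of 192 brain peaks lay downstream, with medians of 7.5 and 19 bp, so the lung peaks there lay about evenly on both sides.

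At the motifs printed above, the Gm38588 window held 24 lung and 2 brain spread tags, and the Homer3 window, at the gene of a postsynaptic scaffold protein, 15 and 5. Homer3 held no single-position tags in either organ. The Cryz window, at the gene of a quinone oxidoreductase, held 0 and 21, with 4 lung single-position tags. Adprhl2, an ADP-ribose hydrolase gene, had 21 and 62 tags, Mrpl34, a mitochondrial ribosomal protein gene, 14 and 22, and Lsm11, a gene of the U7 ribonucleoprotein, 25 and 20. In the liver cells the 6 windows held 95 to 345 spread tags.

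Gene lists of cell types and gene families were compared by the spread-peak tags in each gene and 10000 bp on each side, for genes with at least 10 tags in both libraries together. CTCF occupancy is not expression, so these lists show where CTCF was counted and not which cells a library held, and fewer cells of a type cannot be told apart from less occupancy per cell. Of 9323 genes tested, 2435 were at least 2-fold higher in lung (26.1%) and 3351 at least 2-fold higher in brain (35.9%), with a median log2 ratio of -0.12. The lists are small, their windows can overlap and share tags, and the counts for each list stand beside these shares without a test.

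Hox genes, the homeodomain transcription factors that set position along the body axis and lie in 4 clusters, had the highest median. Of 39 genes, 14 were tested, 9 of them at least 2-fold higher in lung and 1 in brain, with a median log2 ratio of 1.75. Neighbouring Hox genes share tags. With each tag counted once, the Hox windows held 64 lung and 41 brain spread tags, 2.33-fold more in lung after scaling (1.55 to 3.54). This came mostly from the Hoxb cluster, with 33 and 11 tags, a ratio of 4.48 (2.21 to 9.83). The Hoxa cluster held 18 and 18 tags, a ratio of 1.49 (0.733 to 3.04), the Hoxc cluster 11 and 6, and the Hoxd cluster 2 and 6. Single-position tags in the Hoxb cluster numbered 106 in lung and 47 in brain.

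A single site supplied 22 of the 33 lung spread tags of the Hoxb cluster and 0 of its 11 brain spread tags. Ratios of the cluster and of the Hox list without this site were not computed, so a lean of the whole cluster is not shown. The window chr11:96303127-96303327 lies within the antisense RNA gene Hoxb5os, 285 bp from Hoxb5 and 1658 bp from Hoxb6. It held 22 lung and 0 brain spread tags, at least 11.0-fold more in lung, and 8 and 0 single-position tags. Kidney and liver held no spread tags there and the liver cells 31. It was the only site of at least 20 tags within 20000 bp of 6 Hox genes, so these 6 are not separate results.

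Genes of neurons and glia leaned towards brain, to a degree that varied between genes. Of 21 neuron genes found on the autosomes, 10 were tested, with 6 at least 2-fold higher in brain and 2 in lung. Grin2b, an NMDA receptor subunit gene, held 2 lung and 31 brain tags, and Grin1, the gene of its obligate partner, 2 and 20. Rbfox3, which encodes the neuronal marker NeuN, held 18 and 74. In the other direction, Tubb3, a neuronal tubulin gene, held 22 and 16 and Syt1, the gene of a calcium sensor for transmitter release, 11 and 4. Over all neuron gene windows, 112 lung and 281 brain spread tags gave a ratio of 0.595 (0.474 to 0.744).

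Of 15 glia genes, 7 were tested, 5 of them at least 2-fold higher in brain and 0 in lung. Slc1a3, the gene of an astrocyte glutamate transporter, held 0 and 20 tags, Gfap, an astrocyte filament gene, 2 and 19, and Sox10, a transcription factor gene of oligodendrocytes, 0 and 17. Aldh1l1, an astrocyte enzyme gene, held 34 and 53, close to equal after scaling. The glia windows together gave a ratio of 0.567 (0.428 to 0.744) for spread tags. Their single-position tags were 453 and 368, a ratio of 1.84 (1.60 to 2.12), so the 2 kinds of peak went opposite ways. With all peaks in place of spread peaks the median of the glia list was 0.59 in place of -1.84. Both tested brain patterning genes, Lhx2 with 0 and 19 tags and Zic1 with 0 and 11, were on the side of brain.

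Widely expressed genes also stood on the side of brain. Of 14 genes, 7 were tested, with 4 at least 2-fold higher in brain and 1 in lung. Rplp0, a ribosomal stalk protein gene, held 7 and 70 tags and Eef2, the elongation factor 2 gene, 5 and 29, while Gapdh held 13 and 2. The ratio over the list was 0.591 (0.449 to 0.772), near that of the neuron and glia lists, and its single-position ratio was on the other side, with 432 lung and 225 brain tags. The lean of spread tags towards brain was thus present in this list as well.

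Lung epithelium genes were close to equal as a list. Of 18 genes, 5 were tested, with 1 higher in lung and 2 in brain, and the list gave 60 and 92 tags, a ratio of 0.974 (0.692 to 1.36). At Sftpc, the surfactant protein C gene of alveolar type II cells, 12 and 16 tags were counted. Muc1, an epithelial mucin gene, held 5 and 24 and Abca3, a surfactant lipid transporter gene, 14 and 8. Of 4 tested lung mesenchyme genes, 2 were at least 2-fold higher in brain, Col1a1, a collagen gene, at 3 and 40 and Eln, the elastin gene, at 4 and 24. Pdgfrb, a receptor gene of pericytes, held 18 and 36 and Acta2, the smooth muscle actin gene, 4 and 6, both within 2-fold. The single-position tags of this list went the other way, with a ratio of 1.28 (1.06 to 1.56).

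Endothelium and blood genes were mixed. Of 6 tested endothelium genes, 1 was at least 2-fold higher in lung and 1 in brain, and the list ratio was 1.66 (1.24 to 2.23), with 101 lung and 91 brain tags. Vwf, the von Willebrand factor gene of endothelial cells and platelets, supplied 49 and 9 of these tags, and without it the ratio was 0.947 (0.656 to 1.36). A window within Vwf, chr6:125600281-125600481, held 26 and 0. That window also held 5 brain single-position tags. Pecam1, an endothelial adhesion molecule gene, held 8 and 8. Of 4 tested blood and immune genes, Cd79a, a B cell receptor component gene, was higher in lung, with 29 and 9 tags.

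Genes listed for kidney and liver also gave called sites. Within Slc34a1, a phosphate transporter gene of the kidney tubule, chr13:55405481-55405681 held 33 lung and 9 brain tags, a ratio of 5.48 (2.56 to 13.0). Within Hnf4a, a liver transcription factor gene, chr2:163534980-163535180 held 0 and 23 spread tags, but 30 lung single-position tags, and lung was 1.95-fold higher there with all peaks counted. Kidney genes gave 2 higher in lung and 2 in brain among 5 tested, and hepatocyte genes 1 and 0 among 2.

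Of 6 windows near neuron genes, 3 were called brain-higher and 0 lung-higher, beside 18.7% and 11.3% of all sites, and so few windows allow no statement about neuron genes. The window within Grin2b, chr6:135828051-135828251, held 0 lung and 20 brain tags, that within Rbfox3, chr11:118507912-118508112, 3 and 18, and that 15899 bp from Nefl, the neurofilament light chain gene, 3 and 31. Lung single-position tags numbered 6 in the Grin2b window and 7 in the Nefl window, and with all peaks counted their ratios of lung over brain were 0.448 and 0.439, within 4-fold. The other 3 windows near neuron genes were uncalled, but all 3 were higher in lung. Within Slc17a7, the gene of a vesicular glutamate transporter, 18 and 9 tags gave a ratio of 2.99 (1.27 to 7.55). The window 4554 bp from Tubb3 held 18 and 8, a ratio of 3.36 (1.39 to 8.93). That 1102 bp from Camk2a held 15 and 6, a ratio of 3.73 (1.37 to 11.7). In units of the median single-position peak the intervals of these 3 windows included 1. They ran from 0.400 to 22.3 near Slc17a7 and Tubb3 and from 0.217 to 41.2 near Camk2a. The intervals of the 3 brain-higher windows included 1 as well in these units. Of 4 windows near lung epithelium genes 1 was called, 1304 bp from Aqp5, a water channel gene of the alveolar epithelium, with 19 lung and 7 brain spread tags and 3 and 14 single-position tags. With all peaks counted its ratio was 1.56. The same window lies 11588 bp from Aqp2 and was also counted for the kidney list. Aqp5 with 10000 bp on each side held 19 and 27 spread tags, close to equal after scaling. A window 11538 bp from Foxj1, the master regulator of motile cilia, held 26 and 25.

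Genes of CTCF itself and of cohesin gave few differences past 2-fold. Of 8 genes, 6 were tested, with 2 at least 2-fold higher in lung, Smc3, a cohesin ring subunit gene, at 30 and 16 tags and Pds5a, a cohesin regulator gene, at 14 and 9. Ctcf held 8 and 11, and Stag1, a cohesin subunit gene, 18 and 27. Of 18 tested clustered protocadherin genes, the cell surface molecules that CTCF is known to regulate through their alternative promoters, none was 2-fold apart in either direction. Their windows overlap, and together they held 28 lung and 46 brain tags, a ratio of 0.909 (0.547 to 1.49). In the alpha cluster lung held 0 tags and brain 9.

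Of 23 imprinted genes, which are expressed from 1 parental copy and are often flanked by CTCF sites, 8 were tested, with 4 at least 2-fold higher in brain and 2 in lung. The 4 were Igf2, with 0 lung and 22 brain tags, Gnas, with 0 and 16, Snrpn and Nnat. Snrpn, which encodes a small nuclear ribonucleoprotein of neurons, held 0 and 13 tags, and Nnat, a membrane protein gene of the developing brain, 8 and 25. A window 9197 bp from Nnat held 0 and 21. Mest, a gene of the mesoderm, was higher in lung, with 15 and 5, and so was Phlda2, a growth-restricting gene, with 18 and 0.

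**Figure D5:**
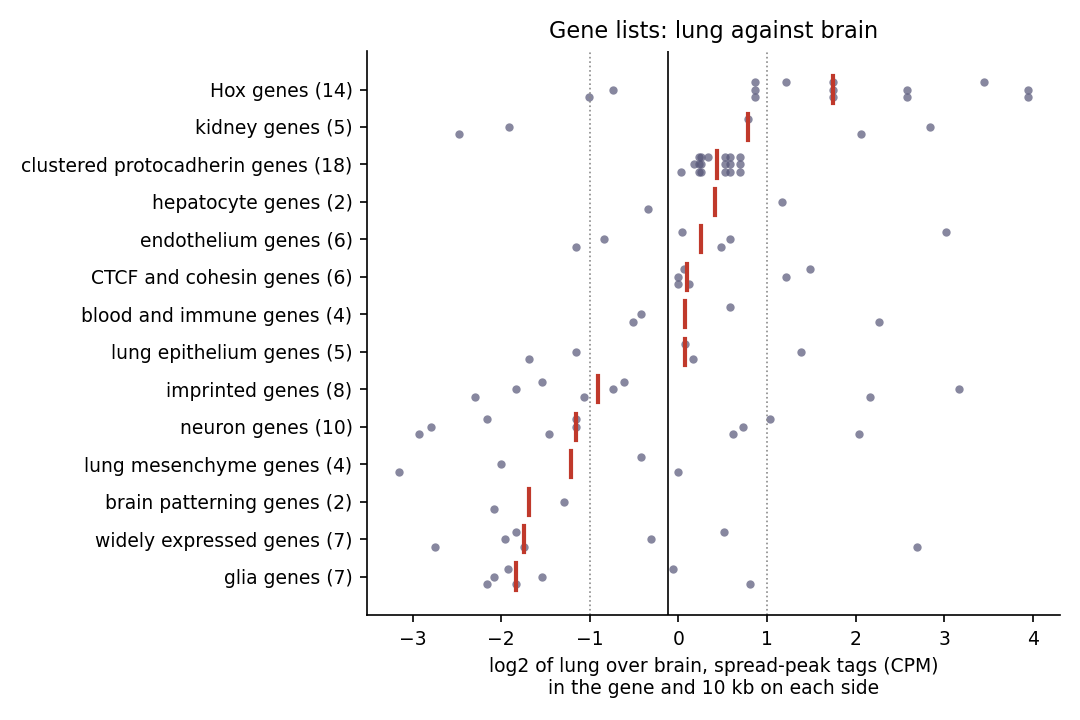
log2 ratio of lung over brain (spread-peak CPM in the gene and 10000 bp on each side) for the tested genes of each list, with the number tested in parentheses; points are genes, red bars list medians, the black line the median of all 9323 genes (-0.12) and dotted lines 2-fold. The Hox median stands highest, at 1.75, and the glia median lowest, at -1.84, with genes on both sides in most lists and overlapping windows in the Hox and protocadherin lists.

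Chromosome by chromosome the spread tags stayed on the side of brain. The log2 ratio of lung over brain ran from -0.63 on chromosome 1, which holds the stretch described above, to -0.03 on chromosome 7, and over all autosomes it was -0.22. For single-position tags it ran from -0.05 on chromosome 3 to 0.37 on chromosome 19 and was 0.12 over all. The median of the tested sites was positive all the same on 17 of 19 chromosomes, the exceptions being chromosomes 1 and 2. Brain spread tags lay outside the tested sites more often than lung ones, as the shares at these sites given above show.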

How the data were processed

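ChIP-exo 5.0 for CTCF was compared between 1 lung and 1 brain library, with kidney, liver and the library of 2700000 liver cells as further values. The authors aligned paired reads of 40 bp, removed non-unique alignments and PCR duplicates, and called strand-specific peaks, whose tag counts they deposited unnormalized. The submitters' processing notes name BWA 0.7.9a, bcl2fastq 2.16 and mm10. Each listed peak spans 21 bp and has a minimum of 2 tags. The libraries of 270000 and 27000 cells were not used. From the deposited counts, tags were scaled to library totals of 691479 and 1032833. Pairs of spread peaks were joined to sites at least 100 bp apart. Shares carry Wilson intervals and ratios exact conditional binomial intervals, at 95%, for counting error only. Site calls, pairs and shared peaks were tested on simulated data. Members, lists and rules were chosen with earlier results of these data known. Named were the 10 called sites in each direction whose interval lay farthest from 1, the strongest sites in both, and the best site within 20000 bp of each listed gene. The brain-higher sites outside dense bins and the shared sites near gene ends were chosen after their values were seen. Genes came from RefSeq (GRCm38.p6, 33073 autosomal genes without strand or exons). The alternatives tried covered matching distance, dense bins, scaling, peak class, minimum tags, fold, window, site source and thinning. The software was scipy 1.17.1, numpy 2.4.6, matplotlib 3.10.9 and pandas 2.3.3 under Python 3.11.15.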

Additional observations from a re-analysis of the deposited data

Results flagged for a closer look

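Tags on the mitochondrial genome, which the comparison left out, were 0.0278% of the lung library (192 tags) and 1.10% of the brain library (11313 tags), both above the floor of 3 tags that a count of 0 allows.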

How the results depend on the processing

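No paired analysis was possible because each organ had 1 library. The share of shared lung peaks, 22.0%, was 14.8% within 5 bp, 30.5% within 20 bp and 43.3% within 50 bp, 27.9% with dense bins kept, 21.2% without bins of 10 or more peaks in both, and 28.1% for peaks of 5 or more tags. The brain share, 7.80%, became 5.18%, 11.4%, 18.9%, 10.8%, 7.31% and 13.4%. Lung-higher and brain-higher sites numbered 373 and 502 of 4250 at a minimum of 10 tags, 62 and 51 of 458 at 40 tags, 639 and 544 at 2-fold, and 93 and 54 at 8-fold. They numbered 367 and 326 of 3452 with all peaks and 533 and 449 of 2871 at sites of the 2700000 liver cell library. Windows of 50 bp on each side gave 263 brain-higher sites, thinning the brain library gave 133 of 1280, and the interval in units of a median single-position peak, added after the data were seen, left 130 and 51. The median log2 site ratio, 0.29, reversed to -0.64 at 10 tags. It was 0.51 when scaled to spread tags, 0.49 with all peaks, 0.58 at 40 tags and 0.58 at the liver cell sites. It was 0.11 with dense bins kept, 0.48 with 50 bp windows and 0.47 after thinning. With all peaks counted the median reversed for all genes to 0.22, and in the lists of glia to 0.59, lung mesenchyme to 0.0225, widely expressed to 1.16, hepatocyte to -0.00611, CTCF and cohesin to -0.00666 and clustered protocadherin genes to -0.20. Within gene bodies alone it reversed for blood and immune genes, to -0.51. The causes were not tested. Stop distances ran from 46 to 53 bp under all alternatives. With 1 library a side, the minimum of 2 tags per listed peak and few tags per site limit what can be seen at weak sites.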
